A study of Mus musculus with 4 samples.

Results

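The genes described here, Tbx1, Tbx2, Tbx3, Tbx4, Tbx5, Tbx15, Tbx18 and Tbx20, encode 8 transcription factors of the mouse T-box family. They were chosen by name, as Tbx2 and Tbx3 with related genes, and their Ensembl identifiers were found among the 37620 genes counted in each of 4 RNA-seq samples. In 2iJ+B-A, the medium with BMP4 and an ALK5 inhibitor, Tbx2, Tbx3, Tbx15, Tbx18 and Tbx20 were all higher than in 2iJ, by 2.18-fold for Tbx3 to 18.4-fold for Tbx18. In TSCs, Tbx15 and Tbx20 were higher still, Tbx18 was level with 2iJ+B-A, and Tbx3 was far lower than in any mESC sample.

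The study compared mouse embryonic stem cells (mESCs) under different signals with trophoblast stem cells (TSCs), the stem cells of the placental lineage. Of the 4 samples, 3 were mESCs of the R1 line after 2 days in feeder-free, serum-containing medium, and 1 was TSCs of the F4 line. Every R1 culture contained CHIR99021, an inhibitor of GSK3, at 3 µM and PD0325901, an inhibitor of MEK, at 1 µM, and none had added LIF, a cytokine that maintains mESCs through JAK and STAT3. The 2i-L culture had only these inhibitors. The 2iJ culture also had a JAK inhibitor at 2 µM. The 2iJ+B-A culture had that JAK inhibitor, BMP4 at 10 ng/ml and ALK5 inhibitor II, which blocks Activin signaling, at 10 µM. BMP4 and the ALK5 inhibitor were added together, so their effects cannot be told apart. The TSC label also reads day 2, with no culture time defined for these cells elsewhere, and they came from another line in another medium. Line, medium and cell type therefore cannot be told apart in a comparison with TSCs. Each condition was measured in 1 of the samples used here, so the differences have no replicate check here and no p-values are given. The study's own RNA-seq comparison held further 2iJ and 2iJ+B-A samples, which are not part of these 4.

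T-box factors share a DNA-binding domain, the T-box, and each can activate or repress genes through a short DNA element. TBX2 and TBX3 act mainly as repressors, and TBX3 is known in mESCs as a support of the naive pluripotent state. TBX1, TBX5, TBX18 and TBX20 are best known for the heart and pharyngeal region, TBX4 for the hindlimb and the allantois, and TBX15 for the skeleton and fat. Several of these genes are known to respond to BMP signals in the embryo.

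Reads assigned to genes numbered between 33913984 and 36964392 read pairs per sample, or 82.2% to 83.6% of those listed. Levels are given as CPM, the count relative to a library size scaled by TMM factors, which ranged from 0.969 to 1.04. The detection floor was set at 3 counts, or 0.0799 to 0.0902 CPM. All intervals are 95% intervals that cover counting error only. In bulk RNA, fewer cells that express a gene and less RNA per cell cannot be told apart.

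The marker genes of the labelled cell types were present. The summed level of 7 mESC markers was 5055, 4556 and 2905 CPM in the 2i-L, 2iJ and 2iJ+B-A cultures and 541 CPM in TSCs. The largest parts in TSCs were Esrrb, Sox2 and Zfp42, at 248, 154 and 123 CPM. Pou5f1, Nanog, Dppa5a and Klf2 had 1.34 to 7.15 CPM there. The sum of 7 TSC markers, Eomes among them, ran the other way. It was 265, 302, 825 and 2233 CPM in 2i-L, 2iJ, 2iJ+B-A and TSCs. The single markers did not all follow this sum. Between 2iJ and 2iJ+B-A, 4 of the 7 rose by a log2 ratio of at least 1, and 1, Eomes, fell, with -1.78. Krt8 went from 133.7 to 552.6 CPM there, and Tfap2c from 141.8 to 113.5 CPM. Elf5, a defining TSC gene, had 5 counts in 2iJ+B-A and 10471 counts in TSCs. The TSC sum rose over the samples in the same order as Tbx15 and Tbx20 below, while the mESC sum fell in that order. The part of these markers in the T-box values was not tested.

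Because the genes are related, the first question was whether reads could be assigned to the wrong one. The coding sequences of Tbx2 and Tbx3, the gene pair of this family named first in the choice of genes, were compared over stretches of 126 bases, the length of 1 read. They are shown at their closest match, with the 21 bases that differ between them in capitals.
Tbx2: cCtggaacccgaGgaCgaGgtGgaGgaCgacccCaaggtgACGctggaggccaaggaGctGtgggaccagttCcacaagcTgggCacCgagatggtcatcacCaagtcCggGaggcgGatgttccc
Tbx3: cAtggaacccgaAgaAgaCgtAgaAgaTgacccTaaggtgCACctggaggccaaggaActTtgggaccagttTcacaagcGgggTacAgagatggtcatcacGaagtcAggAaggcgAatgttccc
Both are coding sequence on the plus strand, spanning the junction of exons 1 and 2 in NCBIM37. The Tbx2 stretch lies at chr11:85646890-85647003 and chr11:85648122-85648133, and the Tbx3 stretch at chr5:120122300-120122413 and chr5:120124035-120124046. Even here 83.3% of the bases were identical. The other pairs of the 8 genes differed by 18 bases, for Tbx4 and Tbx5, to 45 bases, for Tbx2 and Tbx15, at their closest match. No run of 50 bases from 6 of the 8 genes occurred in a protein-coding transcript of any other gene. Tbx5 had 13 such runs of 3891 and Tbx18 had 5 of 4630.

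Of the 8 genes, 6 had at least 1 CPM in at least 1 sample and were compared. Tbx2 reached 1 CPM only in 2iJ+B-A, and Tbx18 only in 2iJ+B-A and TSCs, so these genes entered the comparison through the samples in which they are high. Tbx1 and Tbx5 did not reach it in any sample.

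**Figure D1:**
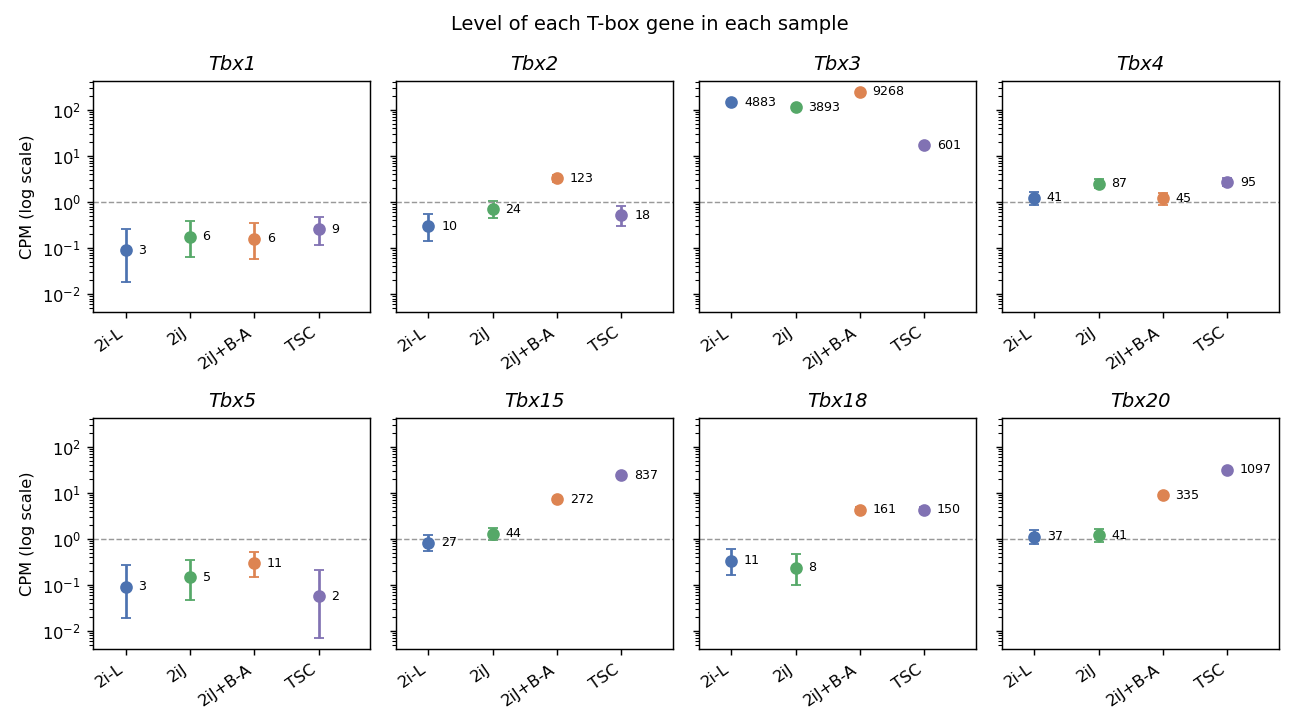
Level of each of the 8 T-box genes in CPM on a log axis, with 1 point per sample (2i-L, 2iJ, 2iJ+B-A, TSC), the count beside it and bars for the 95% Poisson interval of that count. The dashed line is the filter at 1 CPM. Tbx3 lies above 17 CPM in every sample, whereas Tbx15, Tbx18 and Tbx20 step up in 2iJ+B-A and TSC.

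Tbx3 was the most abundant of the 8 in every mESC sample. Going through the samples as 2i-L, 2iJ, 2iJ+B-A and TSC, the order kept for every gene that follows, it had 4883, 3893, 9268 and 601 counts, or 147, 113, 247 and 17.1 CPM. The 4 levels lay in the order 2iJ+B-A, 2i-L, 2iJ and TSC, and the interval of the ratio of each neighboring pair in that order excluded 1. Against 2iJ, Tbx3 was 2.18-fold higher in 2iJ+B-A (2.10 to 2.26), a log2 ratio of 1.12. Tbx3 in 2iJ was at 0.772 of its 2i-L level (0.740 to 0.806), and 2iJ+B-A against 2i-L gave a log2 ratio of 0.75, short of the threshold of 1. The call on Tbx3 thus rests on 2iJ as the reference.

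Tbx2, the closest relative of Tbx3 among the 8 and likewise a repressor, was expressed at a much lower level. Its counts were 10, 24, 123 and 18, or 0.301, 0.699, 3.27 and 0.513 CPM. The 2iJ+B-A sample was above the other 3. Among those, TSCs were not separated from 2iJ or from 2i-L, while the ratio of 2iJ to 2i-L was 2.32 (1.07 to 5.45). Tbx2 was 4.69-fold higher in 2iJ+B-A than in 2iJ (3.01 to 7.59). In TSCs it was at 0.157 of its 2iJ+B-A level (0.0898 to 0.258).

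Tbx20, a cardiac transcription factor, had 37, 41, 335 and 1097 counts. These were 1.11, 1.19, 8.92 and 31.3 CPM. The 2i-L and 2iJ levels did not differ beyond counting error, and each further step excluded a ratio of 1. Tbx20 was 7.47-fold higher in 2iJ+B-A than in 2iJ (5.39 to 10.6) and a further 3.50-fold higher in TSCs than in 2iJ+B-A (3.10 to 3.97).

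Tbx15, which acts in skeletal development, followed the same order. It had 27, 44, 272 and 837 counts, or 0.812, 1.28, 7.24 and 23.8 CPM. Its fold over 2iJ was 5.65 in 2iJ+B-A (4.10 to 7.96) and 18.6 in TSCs (13.7 to 25.8). As for Tbx20, only 2i-L and 2iJ were not separated.

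Tbx18, the near relative of Tbx15 with roles in the sinoatrial node and the epicardium, showed another pattern. It had 11, 8, 161 and 150 counts, or 0.331, 0.233, 4.29 and 4.27 CPM. The samples thus fell into a low pair and a high pair, and neither pair differed within itself beyond counting error. The fold between 2iJ+B-A and 2iJ was 18.4 (9.12 to 43.3), with a wide interval because the 2iJ level rests on 8 counts. The ratio of TSCs to 2iJ+B-A was 0.997, with an interval of 0.793 to 1.25.

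Tbx4, a limb factor whose gene lies next to Tbx2, went the opposite way between 2iJ and 2iJ+B-A. Its counts were 41, 87, 45 and 95, or 1.23, 2.53, 1.20 and 2.71 CPM. The 2i-L and 2iJ+B-A samples were low and the 2iJ and TSC samples were high, with no separation inside either pair. The ratio of 2iJ+B-A to 2iJ was 0.473 (0.322 to 0.685). On the log2 scale with 0.5 CPM added this was -0.84, so Tbx4 was not called, and with 0.1 CPM added it was -1.02 and was called. The log2 ratio against 2i-L was -0.03.

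Tbx1 and Tbx5 were close to the limit of detection. Tbx1, known for the pharyngeal arches, had 3, 6, 6 and 9 counts, and no pair of samples differed beyond counting error. Tbx5, which acts in the forelimb and the heart, had 3, 5, 11 and 2 counts. Its lowest and highest samples, TSC and 2iJ+B-A, were the only pair whose interval excluded 1.

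The 6 genes compared were read against all 14263 genes that reached 1 CPM, calling a gene where the log2 ratio, with 0.5 CPM added to each level, was 1 or more in either direction. Between 2iJ and 2i-L, none of the 8 genes was called, where 1.23% of all genes were higher and 0.918% lower in 2iJ. Once BMP4 and the ALK5 inhibitor were added to 2iJ, 5 of the 8 were called higher, namely Tbx2, Tbx3, Tbx15, Tbx18 and Tbx20, and 0 lower. Of all genes, 5.81% were called higher and 3.17% lower there. Among genes whose highest level was 1 to 5 CPM, as for Tbx2 and Tbx18, 8.47% were higher. The genes were chosen with results of these data known, so their share is a description.

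Ranked by this ratio among the 14263 genes, Tbx18 was number 43 from the highest, Tbx20 number 58, Tbx15 number 116, Tbx2 number 252 and Tbx3 number 681. Their log2 ratios were 2.71, 2.48, 2.12, 1.65 and 1.12. Tbx4 was number 661 from the lowest. Tbx3 thus had the smallest ratio of the 5 called genes, although it had by far the most counts.

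**Figure D2:**
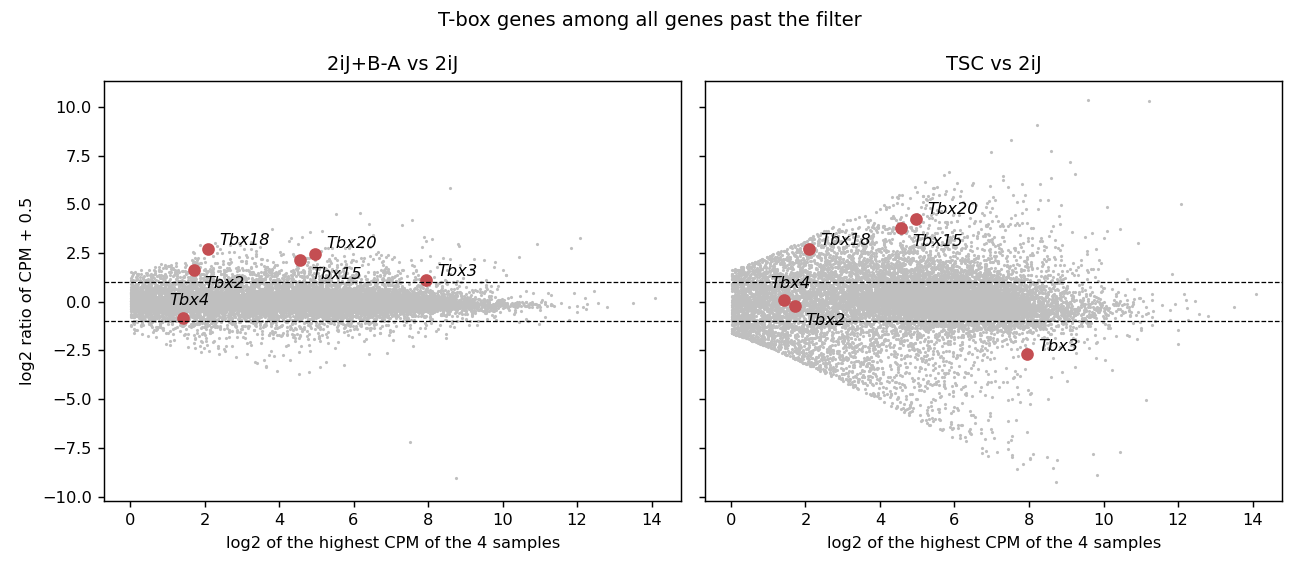
Log2 ratio of CPM + 0.5 against the log2 of the highest CPM over the 4 samples, for all 14263 genes (gray) and the 6 T-box genes past the filter (red), for 2iJ+B-A against 2iJ and TSC against 2iJ; dashed lines mark log2 ratios of 1 and -1. Tbx18 lies near the upper edge of the points in both panels, and Tbx3 lies just above the upper line in the first panel and below the lower line in the second.

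In TSCs, the T-box genes parted. Against 2iJ, Tbx15, Tbx18 and Tbx20 were called higher, with log2 ratios of 3.77, 2.70 and 4.23, and Tbx3 was called lower, with a log2 ratio of -2.69. These 3 higher and 1 lower of 8 stand beside 19.4% of all genes called higher and 17.6% called lower in that comparison. Tbx2 and Tbx4 had log2 ratios of -0.24 and 0.08 and were not called. Tbx3 in TSCs was at 0.151 of its 2iJ level (0.138 to 0.165).

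Between TSCs and 2iJ+B-A, 2 of the 8 were called higher, Tbx15 with a log2 ratio of 1.65 and Tbx20 with 1.75, and 2 were called lower, Tbx2 with -1.90 and Tbx3 with -3.81. Of all genes, 16.4% were higher and 16.2% lower. The comparisons share the 2iJ, 2iJ+B-A and TSC samples and are not independent of each other.

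**Figure D3:**
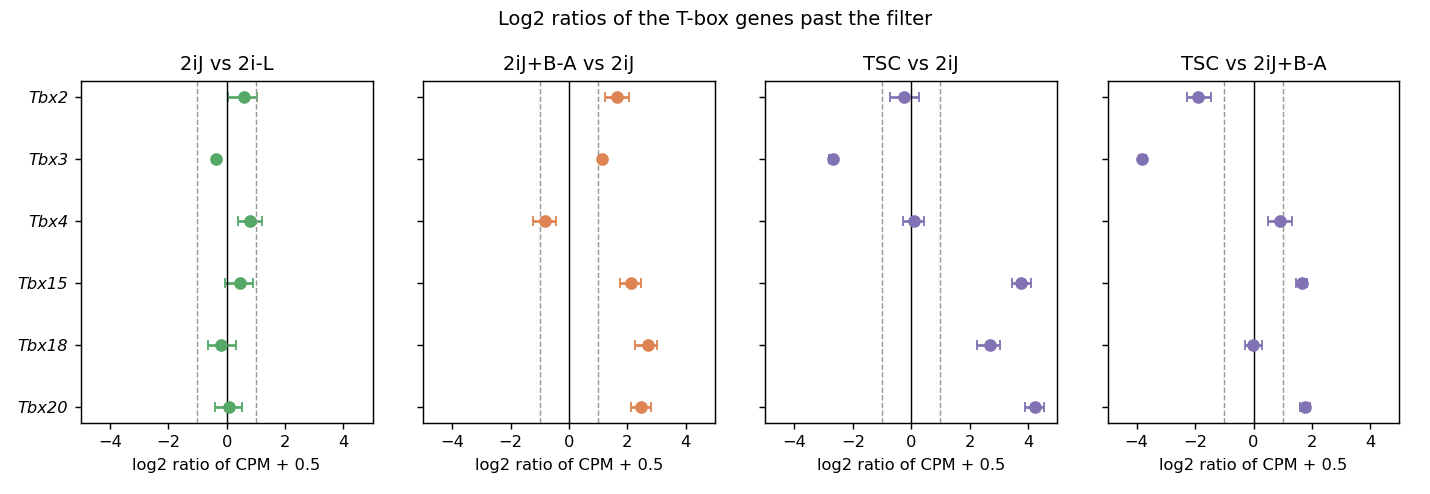
Log2 ratio of CPM + 0.5 of the 6 T-box genes past the filter in 4 comparisons, with bars for the 95% Clopper-Pearson counting interval, a solid line at 0 and dashed lines at 1 and -1. In 2iJ+B-A against 2iJ all but Tbx4 lie right of the upper line, and in both TSC panels Tbx3 lies far to the left while Tbx15 and Tbx20 lie to the right.

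Levels of different genes were compared per length, as RPKM over the merged exons of each gene. Summed over the 8 genes, Tbx3 made up 96.3% of the RPKM in 2i-L, 92.4% in 2iJ and 88.0% in 2iJ+B-A, but 17.2% in TSCs. In TSCs the largest parts were Tbx20 with 37.6% and Tbx15 with 34.4%, followed by Tbx3, then Tbx18 with 4.93% and Tbx4 with 4.30%. In 2iJ+B-A the Tbx3 level was 46.0 RPKM, and Tbx20 and Tbx15, next in order, had 1.98 and 1.93 RPKM. The gain of Tbx2, Tbx15, Tbx18 and Tbx20 in 2iJ+B-A was thus large in ratio and small in RPKM.

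**Figure D4:**
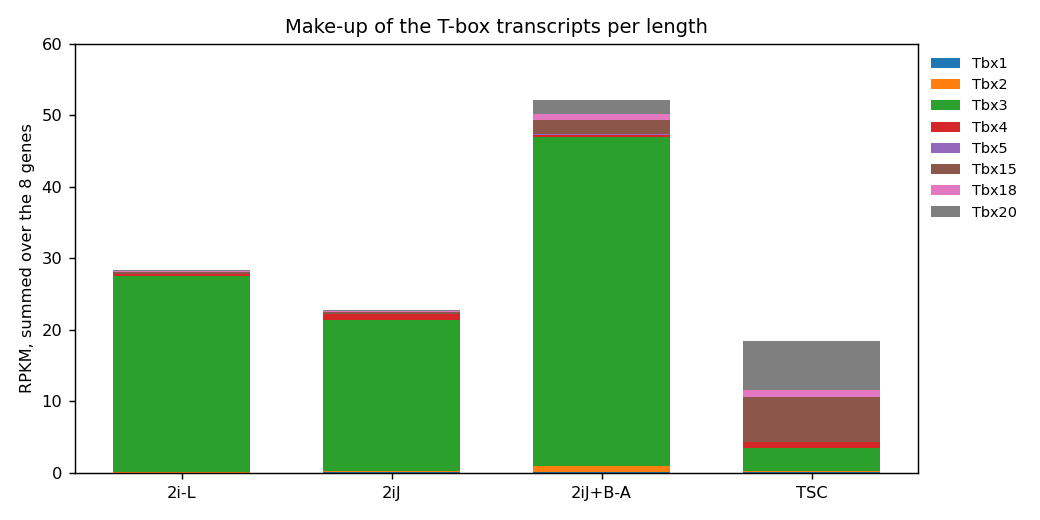
Stacked bars of the level per length (RPKM) of the 8 T-box genes in each of the 4 samples, 1 color per gene. Tbx3 fills most of the bar in the 3 mESC samples and 17.2% of it in TSC, where Tbx20 and Tbx15 are the largest parts.

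The 9 other T-box genes listed gave a contrast. T (Brachyury), a gene of the primitive streak, had 98, 98, 6 and 88 counts. Eomes, required for TSCs, had 413, 366, 103 and 6282 counts. Both were therefore lowest in 2iJ+B-A, the sample in which Tbx2 and Tbx3 were highest. Both were called lower in 2iJ+B-A than in 2iJ, T at a log2 ratio of -2.35 and Eomes at -1.78.

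In TSCs, Eomes was 16.8-fold above 2iJ (15.1 to 18.7), whereas the ratio for T was 0.878 (0.651 to 1.18). Mga, a large protein that pairs with MAX and carries a T-box, was abundant throughout, at 359, 361, 288 and 188 CPM. It was not called in any of the 4 comparisons. Tbr1, Tbx6, Tbx10, Tbx19, Tbx21 and Tbx22 stayed below 1 CPM, with 22 counts of Tbx6 in TSCs as the highest value.

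In 2iJ+B-A, the listed targets of BMP signaling were mostly higher. Of 11 BMP-SMAD target genes, which include inhibitors and SMADs of the pathway itself, 8 were called higher and 0 lower against 2iJ, with a median log2 ratio of 1.94 against -0.0023 for all genes. The largest were Id1, Id2 and Id3, inhibitors of basic helix-loop-helix factors, with log2 ratios of 3.44, 2.98 and 2.54, and the homeobox gene Msx2 with 2.07. The whole list ran from -0.15, for Smad7, to 3.44. Tbx18, at 2.71, Tbx20, at 2.48, and Tbx15, at 2.12, lay among the largest values named. Tbx2, at 1.65, Tbx3, at 1.12, and Tbx4, at -0.84, lay below them. A link of these genes to BMP4 was not tested. Between 2iJ and 2i-L, both without added BMP4, 3 of the 11 BMP-SMAD targets were called higher, Id2, Id3 and Msx1, beside 1.23% of all genes. Of all genes, 5.81% were called higher and 3.17% lower in 2iJ+B-A against 2iJ, and 19.4% and 17.6% in TSCs against 2iJ. Against 2iJ in TSCs, 3 of the 11 were called higher and 2 lower, with a median log2 ratio of -0.21 against 0.0027 for all genes. Id2, at 4.41, and Smad6, an inhibitory SMAD, at 3.58, led in TSCs, while Id4, at -3.85, and Nog, the BMP antagonist Noggin, at -1.88, were the lowest.

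Transcription factors that act with T-box factors in heart and limb were called in part. Of 8 on the list, 4 were called higher in 2iJ+B-A than in 2iJ, 0 were called lower and 4 were below the filter. Among all genes, 5.81% were called higher and 3.17% lower there. Isl1 reached 1 CPM only in 2iJ+B-A, and Gata6 only in 2iJ+B-A and TSCs, so these entered through the samples in which they are high. The genes called were Hand1, a basic helix-loop-helix factor also of trophoblast, with 45 counts in 2iJ and 3889 in 2iJ+B-A, and Gata6, Isl1 and Gata4, with log2 ratios of 2.57, 1.01 and 1.01. The intervals of Isl1, 0.52 to 1.44, and of Gata4, 0.64 to 1.38, reached below the threshold of 1. Hand2, Nkx2-5, Gata5 and Mef2c stayed below 1 CPM in all samples. In TSCs, Hand1, Gata4 and Gata6 were called higher than in 2iJ, with log2 ratios of 7.73, 3.45 and 1.80, and Isl1, at 0.64, was not. Among all genes, 19.4% were called higher and 17.6% lower in that comparison.

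Genes that have been described as repressed by TBX2 or TBX3 differed among themselves. Of 8 listed, 6 passed the filter. In 2iJ+B-A, where both repressors were highest, 2 were called higher than in 2iJ and 0 lower, beside 5.81% and 3.17% of all genes. The list's median log2 ratio was 0.11. The called genes were Ndrg1, a stress-response gene, with a log2 ratio of 2.13, and Gja1, the gap-junction protein connexin 43, with 1.89. Ndrg1 had 29.7, 13.3 and 59.9 CPM in 2i-L, 2iJ and 2iJ+B-A. It was called lower in 2iJ than in 2i-L, at -1.13, so the size of its ratio depends on 2iJ as the reference. Cdkn2a and Cdkn1a, inhibitors of the cell cycle, had log2 ratios of -0.38 and -0.37. Cdh1, which encodes E-cadherin, had 0.54.

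In TSCs, where Tbx3 was lowest, 3 of these genes were called higher than in 2iJ and 2 lower, beside 19.4% and 17.6% of all genes. The list's median log2 ratio was 0.34. Ndrg1, at 4.03, Cdkn2a, at 1.21, and Cdh1, at 1.18, were higher. Gja1, at -3.94, was the lowest. Gja1 was thus highest in 2iJ+B-A and low in TSCs, as Tbx3 was. Between 2i-L and 2iJ the 2 genes went opposite ways. Gja1 in 2iJ was 1.69-fold its 2i-L level (1.57 to 1.83), and Tbx3 was at 0.772 of its own. A link between these genes was not tested.

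The genes that the Boolean model of the study linked to Tbx3 also differed in direction. The links of that model are signed. Tbx3 represses Gbx2, and Tcf3, listed here as Tcf7l1, represses Tbx3, while the other links are positive. The medians given here pool both kinds. All 8 genes passed the filter. In 2iJ+B-A, 2 were called higher than in 2iJ, Bmp4 at 1.59 on the log2 scale and the pluripotency factor Klf4 at 1.17, and 0 were called lower. Klf4 had 66.2, 32.2 and 73.1 CPM in 2i-L, 2iJ and 2iJ+B-A, so its call rests on 2iJ as the reference. Nanog and Esrrb, core pluripotency factors, had log2 ratios of -0.66 each, while Tbx3 had 1.12. In TSCs, 2 were called higher, Bmp4 with 2.12 and Gbx2 with 1.32, and 3 lower, Nanog with -7.80, the nuclear receptor Nr5a2 with -7.20 and Klf4 with -2.39. The list's median log2 ratio was -0.14 in 2iJ+B-A and -0.27 in TSCs.

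Tbx2 and Tbx4 lie side by side on chromosome 11 (NCBIM37, chr11:85646053-85655450 and chr11:85699924-85729599, both on the plus strand), with 44473 bases between them. Tbx3 and Tbx5 form the matching pair on chromosome 5 (chr5:120120678-120134733 and chr5:120284672-120335227, plus strand), 149938 bases apart. Between 2iJ+B-A and 2iJ, Tbx4 had a log2 ratio of -0.84 beside 1.65 for Tbx2. Tbx5, with 5 and 11 counts, had a ratio of 2.01 with an interval of 0.644 to 7.38, too wide to set against the 2.18 of Tbx3.

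Within 500 kb of the Tbx2-Tbx4 pair, 21 other genes are annotated, and 6 passed the filter. None of the 6 was called between 2iJ+B-A and 2iJ. The highest log2 ratio was 0.82, for Ppm1d, a phosphatase of the DNA damage response. In TSCs against 2iJ, Ppm1d, at 1.76, and the noncoding 4632419I22Rik, at 1.08, were called higher. Within 500 kb of the Tbx3-Tbx5 pair, 9 others are annotated and only Rbm19 passed, with a log2 ratio of -0.02 against 2iJ.

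A noncoding RNA close to Tbx3 was also counted. Gm16065, a lincRNA gene on the minus strand just beyond the end of Tbx3 (chr5:120135104-120141227), had 14, 6, 34 and 0 counts. It stayed below 1 CPM and was not called, but its highest and lowest samples were those of Tbx3. Gm2301, a noncoding gene on the minus strand that overlaps the start of Tbx3, had 1, 16, 27 and 9 counts. The counts used here are by strand. Counted without strand, Tbx3 had 9066 instead of 9268 counts in 2iJ+B-A.

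**Figure D5:**
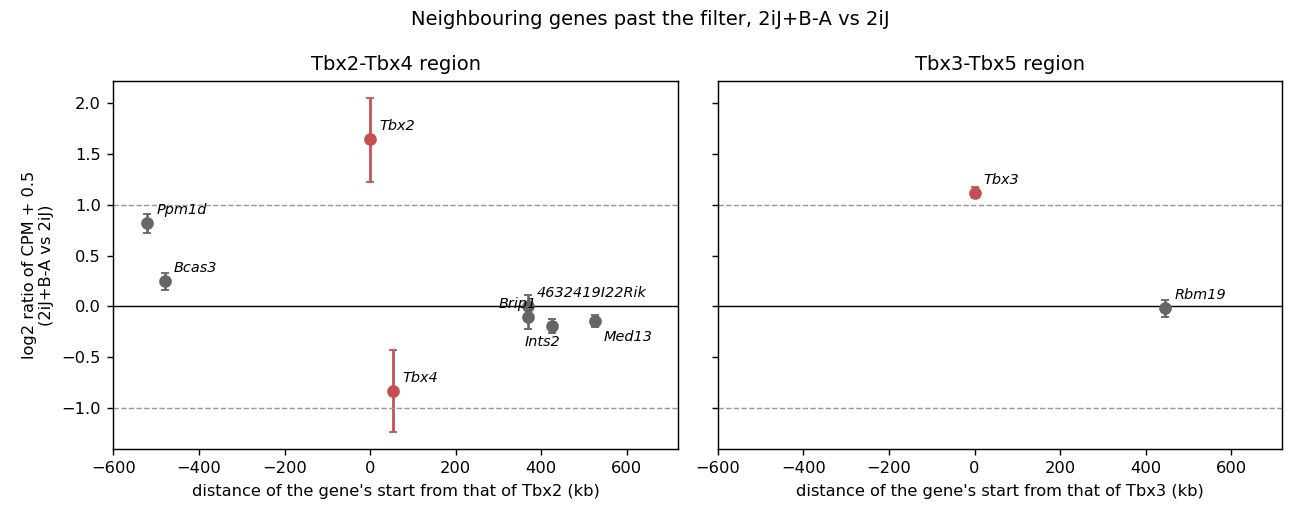
Log2 ratio of CPM + 0.5 in 2iJ+B-A against 2iJ, with 95% counting intervals, for the genes past the filter around Tbx2-Tbx4 (left) and Tbx3-Tbx5 (right), by the distance in kb of each gene's start from that of Tbx2 or Tbx3. T-box genes are red and the 7 others are gray; only Tbx2 and Tbx3 lie above the dashed line at 1.

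The patterns of the 6 compared genes over the 4 samples were matched by the distance between their log2(CPM + 0.5) values, each centered on its mean. Tbx15 and Tbx20 were the closest pair, at a distance of 0.35 on the log2 scale, and Tbx3 and Tbx20 the farthest, at 5.88. Tbx18 was next to Tbx15, at 1.37. Tbx2 and Tbx3 were 2.48 apart, and relative to 2i-L their log2 ratios in TSCs were 0.34 and -3.06. These distances rest on 4 samples, 1 of them of another cell line.

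Among all 14263 genes, those nearest to Tbx15 were Cdc42ep1, Rtn1, Krt18, Arhgap31 and Pcdh1, at distances of 0.12 to 0.26. Krt18, a keratin of simple epithelia, had 80.8, 104, 521 and 1395 CPM. For Tbx20 the nearest were Prss8, Wnk2, Htr1d, Pcdh1 and Cdc42ep1, and 2 of these 5 were also on the Tbx15 list. For Tbx18 they were Dok4, Cebpa, Elf4, Iffo2 and Slc30a4.

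Near to Tbx3 were 4930502E18Rik, Zcchc18, Npl and Mypn, at distances of 0.21 to 0.29. Mypn, which encodes the sarcomere protein myopalladin, had 139, 111, 302 and 8 counts. For Tbx2 they were Cd300e, Plau, Olfml3, Asb13 and Wnt4, and for Tbx4 Fgd4, Ptgs1, Ccdc46, Folr1 and Eng. Plau, the urokinase plasminogen activator, had 31, 50, 229 and 40 counts, with 2iJ+B-A apart from the rest as for Tbx2.

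Markers of other cell types were read beside the T-box genes. The summed level of 8 fibroblast markers was 48.0, 41.0, 30.4 and 7.69 CPM, and in TSCs 4 of the 8 had 3 or fewer counts, with Col1a2, Dcn and Lum at 0. Of 5 cardiac muscle markers, the sum was 11.1, 10.9, 8.36 and 8.20 CPM, and 0 were called higher in 2iJ+B-A than in 2iJ, where Tbx20 and Tbx18 were. In TSCs, where Tbx20 was highest, the calls against 2iJ were mixed. Tnnt2, which reached 1 CPM only there, was higher, with a log2 ratio of 1.11. Myl7 and Actc1 were lower, with -1.98 and -3.12. The sums of 6 early mesoderm markers, which include T, were 6.95, 7.08, 13.3 and 30.6 CPM. Of that list, Pdgfra was called higher in 2iJ+B-A than in 2iJ, with 391 against 86 counts, and Kdr in TSCs, with 781 against 30 counts. T was called lower in 2iJ+B-A, and Mesp1 and Msgn1 had 2 or fewer counts in 2iJ, 2iJ+B-A and TSCs. The 6 primitive endoderm markers summed to 8.18, 16.5, 30.3 and 47.3 CPM. In 2iJ+B-A, 2 of the 6 were called higher than in 2iJ, Sox17 at a log2 ratio of 1.63 and Gata4 at 1.01. The interval of Gata4 there, 0.64 to 1.38, reached below the threshold. In TSCs 2 were called higher than in 2iJ, Gata4 at 3.45 and Foxa2 at 1.60. Afp had 2 or fewer counts in 2iJ, 2iJ+B-A and TSCs. The early mesoderm and primitive endoderm sums moved in the order of Tbx15 and Tbx20, but their single markers did not all do so. Dab2, the largest primitive endoderm marker in each mESC sample, had 5.29, 13.9, 22.8 and 21.1 CPM. Sox17 had 0.571, 0.408, 2.32 and 0.142 CPM. From 2iJ+B-A to TSCs, Dab2 thus did not rise and Sox17 fell, while Gata4 and Foxa2 rose. Of the mesoderm list, Pdgfra fell in that step, while Kdr and T rose. The part of these markers in the Tbx15 and Tbx20 values was not tested. Their calls stand beside 5.81% of all genes called higher in 2iJ+B-A than in 2iJ, and 19.4% in TSCs.

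Promoter sequences of RefSeq (GRCm38.p6), from 250 bases before to 50 bases after a gene's start, were held for 4 of the 8 genes. No entry was found for Tbx2, Tbx3, Tbx5 and Tbx15. Those of Tbx18 and Tbx20 are shown because these genes had the largest ratios of 2iJ+B-A to 2iJ and lie on the same chromosome. Capitals mark GGCGCC, a palindrome known to be bound by BMP SMADs.
Tbx18, chr9:87731211-87731510, minus strand: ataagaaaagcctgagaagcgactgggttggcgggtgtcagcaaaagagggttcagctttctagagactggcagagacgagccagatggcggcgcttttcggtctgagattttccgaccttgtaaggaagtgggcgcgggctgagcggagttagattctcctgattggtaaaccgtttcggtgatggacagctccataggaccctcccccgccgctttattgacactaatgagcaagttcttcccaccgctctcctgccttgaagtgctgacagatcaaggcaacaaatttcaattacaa
Tbx20, chr9:24774254-24774553, minus strand: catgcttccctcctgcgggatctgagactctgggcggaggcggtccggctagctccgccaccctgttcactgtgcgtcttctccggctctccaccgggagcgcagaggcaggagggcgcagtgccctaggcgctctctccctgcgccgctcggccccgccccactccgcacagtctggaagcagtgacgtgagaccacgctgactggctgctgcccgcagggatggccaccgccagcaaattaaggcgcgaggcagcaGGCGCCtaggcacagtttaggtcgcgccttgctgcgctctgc
The Tbx20 window held 1 GGCGCC and the Tbx18 window none. Of all 32851 RefSeq promoter windows, 11.9% held it. GGTGTGA, the core of the T-box element, searched on both strands, was in neither window, nor in those of Tbx1 and Tbx4, and in 3.98% of all. TATAAA, the TATA element, was found once in the Tbx4 window, on the opposite strand, and in 13.6% of all windows. The G and C content was 68.3% for Tbx20 and 51.7% for Tbx18, beside a median of 52.7% over all windows. A match is a description of these letters only.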

How the data were processed

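The authors trimmed 126-base paired reads of poly-A-selected, directional libraries with TrimGalore and cutadapt and deposited STAR 2.4.2a counts of read pairs per gene on NCBIM37, after base calling with CASAVA 1.8.2, per the submitters' processing notes and the study's methods. The deposited counts were not normalized and lack the study's ComBat adjustment. The reverse-strand count was used, which was 29.1 to 32.1 times the other strand. STAR counted only pairs mapped to 1 place, so reads shared by near-identical sequences were lost (6.72% to 7.01% of pairs). Depth was 33913984 to 36964392 counts on genes.

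Identifiers were matched to GENCODE release M1 (37205 of 37620). TMM factors came from edgeR 4.0.16 in R 4.3.3. Genes that reached 1 CPM somewhere were compared. Log2 ratios used 0.5 CPM added, and a gene was called at 1 in size. Intervals of ratios were Clopper-Pearson and of levels exact Poisson. With 1 sample per condition no test was run. The calculation was tested on simulated counts. Other steps used Python 3.11.15, numpy 2.4.6, pandas 2.3.3, scipy 1.17.1 and matplotlib 3.10.9.

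The genes and lists were chosen with earlier results of these data known. Named were the 8 genes, the other T-box genes, up to 4 genes of each list with the largest ratios in 2iJ+B-A or TSCs against 2iJ, called neighbors within 500 kb and the 5 genes nearest in pattern; Cdkn1a, Nanog, Esrrb, Gm16065, Gm2301 and the markers at or near 0 were named after their values were seen. Some genes that the rule names are not reported here. Alternatives were the unstranded count, DESeq2 1.42.0 size factors, total counts, other filters and pseudocounts, a call by the interval, the 2i-L reference and TPM.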

Additional observations from a re-analysis of the deposited data

How the results depend on the processing

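With 1 sample per condition, leaving out a replicate was not possible. No paired analysis was possible because the conditions share no replicates and no test was run. The number of T-box genes called between 2iJ+B-A and 2iJ was 5; it was 3 with a filter of 5 CPM, which removed Tbx2, Tbx4 and Tbx18, 6 with 0.1 CPM added, which also called Tbx4, and 4 against 2i-L, where Tbx3 was not called. Calls in the other comparisons numbered 0 between 2iJ and 2i-L under each alternative run, 3 or 4 between TSCs and 2iJ, and 3 to 5 between TSCs and 2iJ+B-A. None of 132 log2 ratios of single T-box genes reversed a call, and 17 left their counting interval, 9 with another pseudocount and 8 with the 2i-L reference. The genes nearest in pattern depended on the pseudocount, with 7 of 30 kept with 0.1 CPM added and 11 with 1 CPM added. With a filter of 5 CPM, only Tbx3, Tbx15 and Tbx20 were left, and all 15 of their nearest genes were kept. The Tbx3 share of 88.0% in 2iJ+B-A was 87.7% with the unstranded count. Size factors, total counts and TPM scale all genes of a sample alike, so they could not change this share. Tbx1, Tbx5 and, outside 2iJ+B-A, Tbx2 rest on 24 counts or fewer per sample.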
